A study of Mus musculus with 14 samples.

Results

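Oligodendrocyte precursor genes were followed through 14 RNA libraries of sorted hippocampal cells. The set is 10 of the 43346 genes in the count table: Pdgfra, Cspg4, Neu4, Olig1, Olig2, Sox10, Gpr17, Bcas1, Enpp6 and Bmp4, each matched by its Ensembl identifier to a GENCODE symbol. They are known markers of oligodendrocyte precursors and of the cells these turn into, and they were selected on their levels in CAG-GFP Pilo against CAG-GFP Sham, which an earlier look at these data had shown. Differences between those groups are therefore given as a description, and they support nothing here. All 10 passed the filter on low counts that left 18676 genes for testing. That filter also passes a gene through the groups in which it is high.

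Oligodendrocyte precursors are dividing glial cells spread through the adult brain, the hippocampus included. They carry the PDGF receptor encoded by Pdgfra and the proteoglycan encoded by Cspg4 on their surface, and PDGF-A keeps them dividing. When a precursor commits to differentiate it loses these receptors, passes through a short premyelinating stage marked by genes such as Gpr17, Bcas1 and Enpp6, and then makes myelin. Olig1, Olig2 and Sox10 are transcription factors of the whole lineage. BMP signals, such as that of Bmp4, are known to hold back oligodendrocyte differentiation.

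The libraries came from live GFP-positive cells that the labels call adult-born granule cells, the neurons that the dentate gyrus adds in adult life, sorted at day 14 from the hippocampus of wild-type C57BL/6 mice, with 800 to 1000 of them in a sample. The 4 groups were CAG-GFP Sham and DREADD Pilo, with 3 libraries each, and CAG-GFP Pilo and DREADD Sham, with 4 each. CAG-GFP cells carried GFP alone, and DREADD cells carried hM4Di, an engineered receptor used for silencing, with GFP. All 4 groups, the controls included, were given CNO, the ligand of the receptor. Pilo mice received pilocarpine at 300 mg/kg, which sets off status epilepticus, after scopolamine and terbutaline, and the seizures were ended with diazepam. CAG is a promoter active in most cell types, and the labels used here give neither the promoter of the DREADD construct nor the animals' age. They do not say that the libraries came from separate animals either, and p-values then speak of the spread among these libraries alone.

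Levels are in CPM, the counts of a gene scaled to a common library total after TMM factors, and levels of different genes are compared only per kilobase of annotated exon. Libraries held 10613291 to 38614639 counts. CAG-GFP Pilo 4 had the most counts but the fewest genes detected, 9372, against 14512 to 20863 in the other libraries. A gene without a count in that library is therefore weak evidence of absence. The spelling of the library names split them into 2 sets: all of CAG-GFP Sham, DREADD Sham 1 and 2 and CAG-GFP Pilo 3 and 4 in set 1, the rest in set 2, so that no set holds both CAG-GFP Sham and DREADD Pilo. Markers of glia were abundant beside those of the labelled cell type, in sums over different genes that do not give cell shares: 12 granule cell genes summed to 115 to 1140 CPM per library, whereas 14 astrocyte genes summed to 29542 to 31027 CPM in CAG-GFP Sham and 13 myelinating oligodendrocyte genes to 30383 and 41614 CPM in DREADD Sham 4 and 3. The 3 CAG-GFP Sham libraries lay close together. These 13 myelinating genes summed to 730 to 801 CPM there, against 1596 to 38404 CPM in CAG-GFP Pilo and 586 to 46923 CPM in DREADD Pilo. The labels do not say that the 3 are independent, and tests against that group may understate its spread. The library DREADD Pilo 3 stood apart, with 191274 CPM in 11 genes of ependyma and choroid plexus, against 379 to 17381 CPM in the other 13 libraries. The fitted differences of DREADD Pilo are also given without it, and without it the DREADD Pilo means of the 10 genes, and the bounds and levels per kilobase made from them, were 1.35 (Pdgfra) to 1.5 times as high.

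Summed over the 10 genes, the level was 33.1, 32.6 and 49.9 CPM in the CAG-GFP Sham libraries. It was 1556, 1480, 233 and 1242 CPM in CAG-GFP Pilo, and 693, 1102, 1521 and 1302 CPM in DREADD Sham. In DREADD Pilo it was 3178, 2237 and 89 CPM. Every library of the other groups lay above every CAG-GFP Sham library, and DREADD Pilo 3 was the lowest of those 11. CAG-GFP Sham had the lowest mean for 10 of the 10 genes, and DREADD Pilo the highest for 9 of them, the exception being Pdgfra. The 3 higher groups overlapped with their neighbours in that order for all 10 genes, so their order is not larger than the spread between libraries. In such bulk samples, fewer cells of a type and less RNA per cell cannot be told apart.

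**Figure D1:**
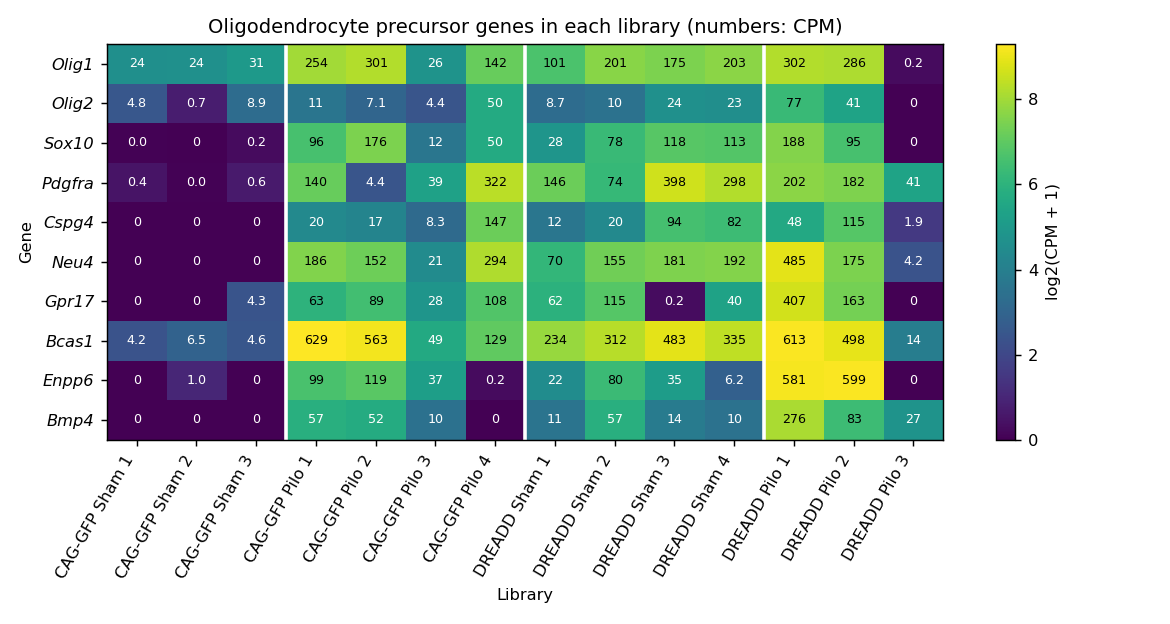
Level of each of the 10 genes (rows) in each of the 14 libraries (columns, white lines between groups); colour is log2(CPM + 1) and the printed number is CPM. CAG-GFP Sham is dark apart from Olig1, DREADD Pilo 3 is dark apart from Pdgfra, Bmp4 and Bcas1, and Enpp6 and Bmp4 are brightest in DREADD Pilo 1 and 2.

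Transcripts for the surface proteins of the precursor were nearly absent from CAG-GFP Sham. Pdgfra (ENSMUSG00000029231), the receptor for PDGF-A, lies at chr5:75152292-75198215 on the plus strand of GRCm38. It stood at 0.398, 0.0494 and 0.576 CPM in CAG-GFP Sham. In the CAG-GFP Pilo libraries it stood at 140.1, 4.42, 38.5 and 322 CPM, 146, 74.2, 398 and 298 CPM in DREADD Sham and 202, 182 and 41.5 CPM in DREADD Pilo. Both DREADD groups and CAG-GFP Pilo lay wholly above CAG-GFP Sham, and CAG-GFP Pilo 2 was the low library among them.

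Cspg4 (chr9:56865033-56899870, plus strand) encodes the NG2 proteoglycan, which pericytes also carry. No count of it was found in any CAG-GFP Sham library. It stood at 20.0, 17.1, 8.32 and 147 CPM in CAG-GFP Pilo, 11.6, 19.7, 93.9 and 82.3 CPM in DREADD Sham and 48.3, 115 and 1.89 CPM in DREADD Pilo. With 3 counts over the group as the floor, its mean was at least 954-fold higher in CAG-GFP Pilo, 1027-fold higher in DREADD Sham and 1091-fold higher in DREADD Pilo than in CAG-GFP Sham. Without CAG-GFP Pilo 4 the first bound was 300.5-fold, and without DREADD Pilo 2 the last was 497-fold. Such bounds cover counting error alone, because the reads carry no molecular identifiers and several can come from 1 molecule.

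Neu4 (chr1:94020451-94028334, plus strand), a sialidase that removes sialic acid from glycoproteins and glycolipids, was also without a count in CAG-GFP Sham. It stood at 186, 152, 21.4 and 294 CPM in CAG-GFP Pilo, 69.6, 155, 181 and 192 CPM in DREADD Sham and 485, 175 and 4.24 CPM in DREADD Pilo. Its mean was at least 3235-fold, 2959-fold and 4389-fold higher in those groups than in CAG-GFP Sham, on the same floor, and the last was 1778-fold without DREADD Pilo 1. The other sialidases were not on this scale: Neu1, the lysosomal enzyme, stood at 17.1 to 27.8 CPM in CAG-GFP Sham and at 36.7 to 129 CPM in the other libraries, and of the 3 other sialidases tested none passed in any comparison.

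The transcription factors differed among themselves in CAG-GFP Sham. Olig1 (chr16:91269772-91271933, plus strand) was found there at 23.7, 24.3 and 31.4 CPM, the highest level per kilobase of the 10 genes in that group (12.3 ± 1.99 CPM per kilobase, SD, n = 3). In CAG-GFP Pilo it stood at 254, 301, 26.2 and 142 CPM, in DREADD Sham at 101, 201, 175 and 203 CPM and in DREADD Pilo at 302, 286 and 0.223 CPM. CAG-GFP Pilo 3 lay inside the CAG-GFP Sham range and DREADD Pilo 3 below it.

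Olig2 (chr16:91225457-91228677, plus strand), the neighbour of Olig1 and the factor that specifies the lineage, stood at 4.78, 0.691 and 8.86 CPM in CAG-GFP Sham. In the CAG-GFP Pilo libraries it stood at 11.3, 7.09, 4.44 and 49.9 CPM, 8.75, 10.3, 24.4 and 23.2 CPM in DREADD Sham and 77.0, 40.6 and 0 CPM in DREADD Pilo. Its fitted log2 fold change against CAG-GFP Sham was the lowest of the 10 genes in CAG-GFP Pilo (1.93) and DREADD Sham (1.80), and in DREADD Pilo it stood at 3.04, next to Olig1 at 2.89. Its groups overlapped in every comparison. Astrocytes are known to express some Olig1 and Olig2, and in CAG-GFP Sham, where both were found, the 14 astrocyte genes were at their highest. The part of astrocytes in the levels of Olig1 and Olig2 was not tested.

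Sox10 (chr15:79154908-79165240, minus strand), which drives myelin genes, was close to 0 in CAG-GFP Sham, at 0.0497, 0 and 0.21 CPM. It stood at 95.6, 176, 11.5 and 50.5 CPM in CAG-GFP Pilo, 27.7, 77.9, 118 and 113 CPM in DREADD Sham and 188, 95.2 and 0 CPM in DREADD Pilo. The 2 groups other than DREADD Pilo lay wholly above CAG-GFP Sham, and in DREADD Pilo the exception was library 3.

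**Figure D2:**
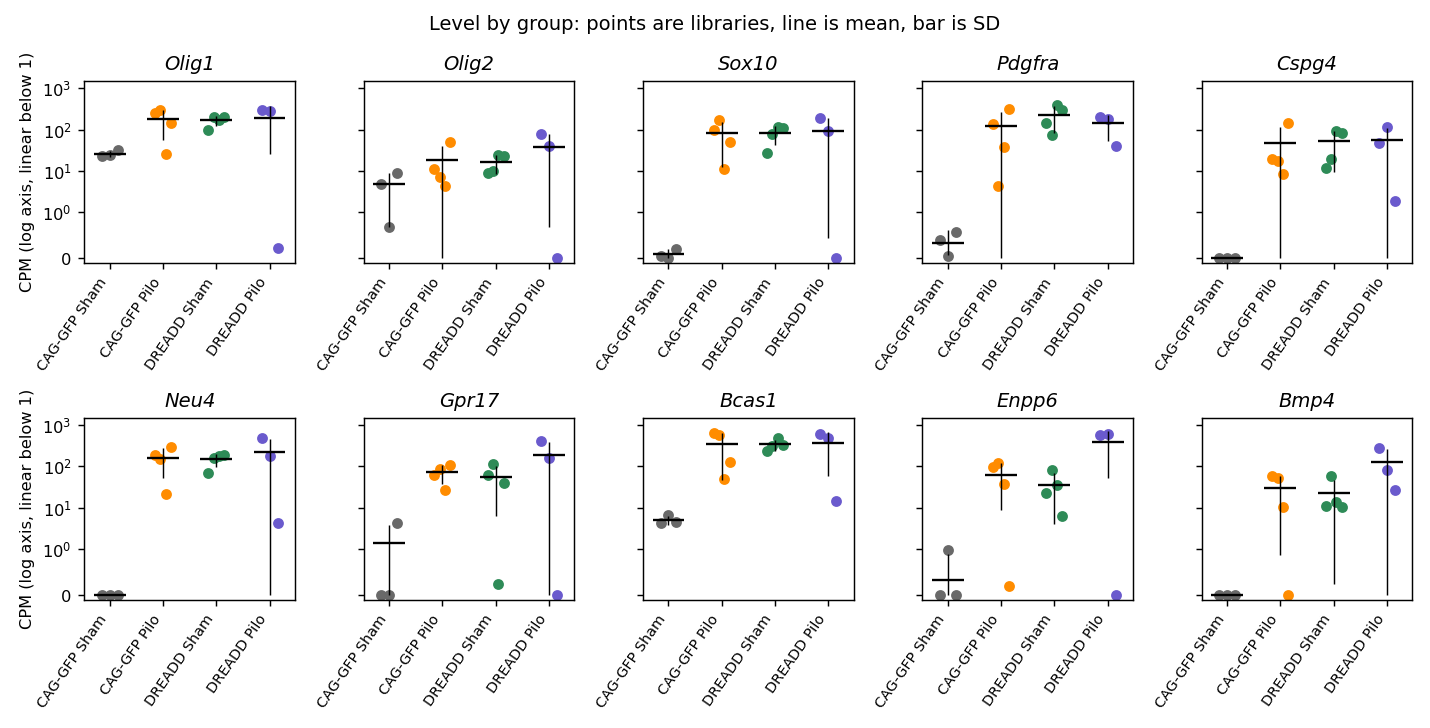
CPM of each of the 10 genes by group, on a log axis that is linear below 1; points are libraries, horizontal lines the mean and vertical bars the SD (n = 3, 4, 4 and 3). Cspg4, Neu4 and Bmp4 are at 0 in all 3 CAG-GFP Sham libraries, and the 3 other groups overlap for each gene.

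Gpr17, Bcas1 and Enpp6 mark cells that leave the precursor stage. Gpr17, a receptor of committed precursors that holds back their maturation, lies on chromosome 18 on the minus strand. It was at 0, 0 and 4.3 CPM in CAG-GFP Sham. In the CAG-GFP Pilo libraries it stood at 63.3, 88.5, 27.5 and 108 CPM, 62.1, 115, 0.233 and 39.7 CPM in DREADD Sham and 407, 163 and 0 CPM in DREADD Pilo. DREADD Sham 3 held 4 counts of Gpr17 beside the highest Pdgfra level of any library.

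Bcas1 (chr2:170346991-170427845, minus strand), a marker of newly formed oligodendrocytes, was the highest of the 10 genes per kilobase in all 3 groups other than CAG-GFP Sham, with 90.7 ± 78.4 CPM per kilobase for CAG-GFP Pilo (SD, n = 4), 90.3 ± 27.6 for DREADD Sham (SD, n = 4) and 99.4 ± 84.2 for DREADD Pilo (SD, n = 3). By library it stood at 4.23, 6.52 and 4.56 CPM in CAG-GFP Sham. In the CAG-GFP Pilo libraries it stood at 629, 563, 48.8 and 129 CPM, 234, 312, 483 and 335 CPM in DREADD Sham and 613, 498 and 14.4 CPM in DREADD Pilo. All 11 libraries of the other groups lay above CAG-GFP Sham, DREADD Pilo 3 included.

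Enpp6 (chr8:46986887-47096762, plus strand), a choline phosphodiesterase of newly differentiating oligodendrocytes, separated DREADD Pilo 1 and 2 from the other libraries. It stood at 0, 0.987 and 0 CPM in CAG-GFP Sham. In the CAG-GFP Pilo libraries it stood at 98.5, 119, 36.5 and 0.206 CPM, 22.2, 79.9, 34.6 and 6.22 CPM in DREADD Sham and 581, 599 and 0 CPM in DREADD Pilo. Leaving out DREADD Pilo 3 took the DREADD Pilo mean from 393 ± 341 CPM (SD, n = 3) to 590 CPM. CAG-GFP Pilo 4 held 11 counts of Enpp6 beside the highest Pdgfra and Cspg4 levels of its group.

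Bmp4 (chr14:46383520-46390669, minus strand), a secreted BMP ligand, had no count in CAG-GFP Sham and none in CAG-GFP Pilo 4. It stood at 57.4, 52.1 and 10.2 CPM in CAG-GFP Pilo 1 to 3, 10.8, 57.0, 13.8 and 10.3 CPM in DREADD Sham and 276, 83.1 and 26.8 CPM in DREADD Pilo. DREADD Pilo 1 was the highest library, and the DREADD Pilo and DREADD Sham ranges overlapped. Its mean was at least 593-fold, 455-fold and 2545-fold higher in those 3 groups, in that order, than in CAG-GFP Sham. Without DREADD Sham 2 the second bound was 231-fold, and without DREADD Pilo 1 the last was 1088-fold.

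Promoters of 6 of the 10 genes were read from the promoter table of RefSeq (GRCm38.p6): Pdgfra, Cspg4, Neu4, Olig2, Enpp6 and Bmp4. The 250 bases before the RefSeq start are shown, on the gene's strand, for Enpp6, Bmp4 and Pdgfra. In the 10 libraries without CAG-GFP Sham and DREADD Pilo 3, the levels of Enpp6 and Bmp4 went together most closely. Pdgfra correlated with them at -0.30 and -0.28 in those libraries, CAG-GFP Pilo 4 included. Capitals mark a searched motif.
Pdgfra (chr5:75152001-75152250, plus strand): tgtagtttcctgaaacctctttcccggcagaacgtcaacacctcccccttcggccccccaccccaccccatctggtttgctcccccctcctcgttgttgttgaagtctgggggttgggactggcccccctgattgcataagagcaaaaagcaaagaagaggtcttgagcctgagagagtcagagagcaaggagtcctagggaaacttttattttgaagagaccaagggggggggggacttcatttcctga
Enpp6 (chr8:46986637-46986886, plus strand): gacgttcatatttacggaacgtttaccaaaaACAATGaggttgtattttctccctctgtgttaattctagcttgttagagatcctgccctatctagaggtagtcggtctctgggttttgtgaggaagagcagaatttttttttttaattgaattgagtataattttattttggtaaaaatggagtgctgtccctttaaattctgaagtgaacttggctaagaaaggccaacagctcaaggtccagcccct
Bmp4 (chr14:46390670-46390919, minus strand): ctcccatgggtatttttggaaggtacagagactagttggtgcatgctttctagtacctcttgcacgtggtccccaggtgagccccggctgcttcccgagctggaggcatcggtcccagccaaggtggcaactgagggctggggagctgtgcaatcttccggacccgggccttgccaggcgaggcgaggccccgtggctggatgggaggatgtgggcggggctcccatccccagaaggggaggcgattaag
Both strands of 300 bases, from 250 before to 50 after each start, were searched for 2 SOX-type motifs, ACAAAG and ACAATG, and 2 E-boxes of the kind that OLIG factors bind, CAGCTG and CATATG. Enpp6 held ACAATG, 219 bases before the start, and Olig2 held its reverse complement CATTGT, 68 bases before the start. The other 4 promoters held no match. Among all 32851 promoters of that length, 18.7% held ACAAAG, 12.6% ACAATG, 16.3% CAGCTG and 3.91% CATATG, and 42.8% held at least 1 of the 4. The matches are a description of these letters and not of binding.

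Seizures in DREADD cells were read from DREADD Pilo against DREADD Sham, which shares no library with the groups that chose the genes. Enpp6, Bmp4 and Gpr17 had the largest fitted differences, and none of the 10 genes passed the test. The log2 fold change was 3.46 ± 1.92 (SE) for Enpp6, 2.48 ± 1.54 for Bmp4, 1.80 ± 1.88 for Gpr17 and 1.24 ± 1.45 for Olig2, each with an adjusted p of 1 in edgeR's quasi-likelihood test. The other genes lay nearer to 0, at 0.57 ± 1.07 for Neu4, 0.21 ± 1.16 for Olig1, 0.17 ± 1.37 for Sox10, 0.14 ± 0.94 for Bcas1, 0.09 ± 1.25 for Cspg4 and -0.69 ± 1.07 for Pdgfra. The background was 0% of 18676 genes called by edgeR. Of the 10 genes, 0 had an unadjusted p under 0.05 in edgeR (5.18% of the genes tested), and DESeq2 called 0 (0.876%), as did limma voom (0%).

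The median of the 10 log2 fold changes was 0.39, against 0.07 over all genes tested, and 9 of the 10 were positive. Single libraries moved it: it was 0.94 without DREADD Pilo 3, -0.06 with 5 genes positive without DREADD Pilo 1, 0.18 without DREADD Sham 1 and 0.61 without DREADD Sham 3. It was -0.19 in limma voom, 0.23 with library set as a covariate and 0.14 within set 2. No gene had all DREADD Pilo libraries above all DREADD Sham libraries, a condition that 4.39% of the genes tested met. Without DREADD Pilo 3 the fitted differences were 4.02 ± 1.62 for Enpp6, 2.94 ± 1.65 for Bmp4, 2.36 ± 1.69 for Gpr17 and 1.80 ± 1.13 for Olig2, again with an adjusted p of 1 in edgeR. Within library set 2 alone they were 4.25 ± 2.48 for Enpp6, 3.40 ± 1.04 for Bmp4 and 3.24 ± 2.66 for Gpr17, with an adjusted p of 0.694, 0.636 and 0.821 in edgeR. With SEs of 0.94 to 1.92 over all libraries, differences of this size were not detectable.

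**Figure D3:**
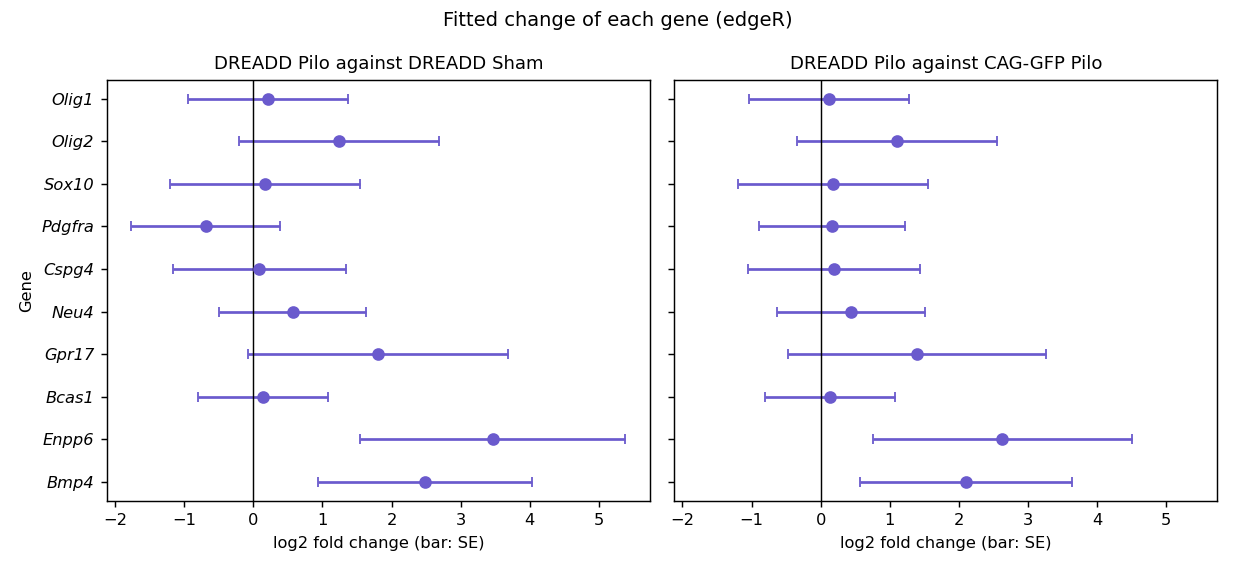
Fitted log2 fold change (points) with its SE (bars) of each of the 10 genes, for DREADD Pilo against DREADD Sham (left) and DREADD Pilo against CAG-GFP Pilo (right). Enpp6 and Bmp4 lie farthest from 0 in both panels, and no gene passed the test in either.

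Silencing after seizures was read from DREADD Pilo against CAG-GFP Pilo. Enpp6 and Bmp4 again had the largest values, a log2 fold change of 2.63 ± 1.87 (SE) and 2.10 ± 1.53, followed by Gpr17 at 1.40 ± 1.87 and Olig2 at 1.11 ± 1.44. The remaining 6 genes lay between 0.12 (Olig1) and 0.44 (Neu4). None passed, with adjusted p-values of 0.937 to 0.999 in edgeR, against 0% of the genes tested. Of the 10, 0 had an unadjusted p under 0.05 in edgeR (5.36% of the genes tested) and 0 were called by DESeq2 (1.25%). The median was 0.32, against 0.28 over all genes, and 0 of the 10 genes had all DREADD Pilo libraries above all CAG-GFP Pilo libraries, against 5.69% of the genes tested. Without DREADD Pilo 3 the median was 0.88, and Enpp6 stood at 3.21 ± 1.59 and Bmp4 at 2.59 ± 1.64, each with an adjusted p of 0.945 in edgeR. With other single libraries left out, the median ran from -0.03 (DREADD Pilo 1 or CAG-GFP Pilo 3) to 1.44 (CAG-GFP Pilo 4). CAG-GFP Pilo is also one of the groups that chose the genes, and it is shared with the comparison against CAG-GFP Sham.

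DREADD cells without seizures were set against CAG-GFP Sham as well. In DREADD Sham against CAG-GFP Sham, 3 of the 10 genes passed: Pdgfra, whose log2 fold change was 9.37 ± 1.62 (SE, adjusted p = 0.0296, edgeR), Cspg4 (adjusted p = 0.0451) and Neu4 (adjusted p = 0.0181). The background was 0.300% of the genes tested. Bcas1 at 6.06 ± 1.24 (adjusted p = 0.0574, edgeR) and Sox10 (adjusted p = 0.0701) did not pass, nor did Olig1 at 2.68 ± 1.28 (adjusted p = 0.275) or Olig2 at 1.80 ± 1.54 (adjusted p = 0.598). All libraries of DREADD Sham lay above all of CAG-GFP Sham for 8 genes, all but Olig2 and Gpr17, against 9.01% of the genes tested. The control libraries are those that chose the genes, so these counts are not independent of that choice.

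Both other comparisons with CAG-GFP Sham share those controls too. In CAG-GFP Pilo against CAG-GFP Sham, the contrast that chose the genes, the same 3 genes passed (0.241% of the genes tested), and 6 had no overlap between groups (6.55% of the genes tested). From DREADD Pilo against CAG-GFP Sham the count was again these 3 (0.225%), and 5 genes, Pdgfra, Cspg4, Neu4, Bcas1 and Bmp4, had no overlap (19.8%). The medians of the 10 log2 fold changes were 8.04 for CAG-GFP Pilo, 8.05 for DREADD Sham and 9.35 for DREADD Pilo, against 0.41, 0.53 and 0.66 over all genes. Fitted changes of Cspg4, Neu4 and Bmp4, which have no count in CAG-GFP Sham, depend on the prior count, and their bounds are given above.

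The calls against CAG-GFP Sham depended on single libraries of several groups. Without CAG-GFP Sham 1, 2 or 3, none of the 10 genes passed in any of the 3 comparisons, and 3 to 7 genes passed over all those tested. None of the 10 passed in DREADD Sham without DREADD Sham 2, 3 or 4, where 10 of 18233, 8 of 18620 and 8 of 18569 genes passed. Nor did any in CAG-GFP Pilo without CAG-GFP Pilo 1, where 3 of 18596 genes passed. Without DREADD Pilo 3 the counts were 5 for CAG-GFP Pilo (0.759% of the genes tested), 5 for DREADD Sham (1.31%) and 6 for DREADD Pilo (0.764%). Neu4 alone of the 10 passed in DREADD Sham without DREADD Sham 1 (12 of 18263 genes passed). The same held in DREADD Pilo without DREADD Pilo 1 (9 of 19874) or 2 (10 of 19973). Within library set 1, 5 genes passed in CAG-GFP Pilo (2.73%) and 5 in DREADD Sham (3.07%): Pdgfra, Cspg4, Neu4, Sox10 and Bcas1.

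The interaction, the seizure difference in DREADD cells minus that in CAG-GFP cells, had a median of -7.56 over the 10 genes, against -0.43 over all genes. None passed in edgeR (0% of the genes tested), 6 had an unadjusted p under 0.05 (11.7% of the genes tested), and DESeq2 called 6 (8.47% of the genes it tested): Pdgfra, Cspg4, Neu4, Sox10, Bcas1 and Bmp4. It contains the contrast that chose the genes, so neither count supports a difference between the constructs.

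The genes went together less closely in fewer libraries. Over all 14 libraries, the log2 CPM of the 45 gene pairs had Pearson correlations of 0.18 to 0.97, with a median of 0.73. These points share the CAG-GFP Sham libraries, low in every gene. In the 11 libraries without CAG-GFP Sham the median was 0.65, the range -0.28 to 0.99, and 41 pairs were positive. In the 10 libraries left without CAG-GFP Sham and DREADD Pilo 3, the median was 0.35, the range -0.32 to 0.96, and 37 pairs were positive. Correlated libraries share groups, library set and depth, and the values are a description.

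Within those 10 libraries, Enpp6 and Bmp4 had the highest correlation of any pair, 0.96. Olig1, Sox10 and Bcas1 formed another close group, at 0.94 for Olig1 with Sox10 and 0.93 for Olig1 with Bcas1. Cspg4 and Olig2 stood at 0.86, and Pdgfra was nearest to Olig2 (0.66) and Cspg4 (0.64). Pdgfra with Enpp6 was at -0.30 and Cspg4 with Bmp4 at -0.32. Both values include CAG-GFP Pilo 4, which held 11 counts of Enpp6 and none of Bmp4. That library also had the highest Pdgfra and Cspg4 levels of its group. Correlations without it were not computed, so a split between the receptors and the pair of Enpp6 and Bmp4 may rest on it.

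**Figure D4:**
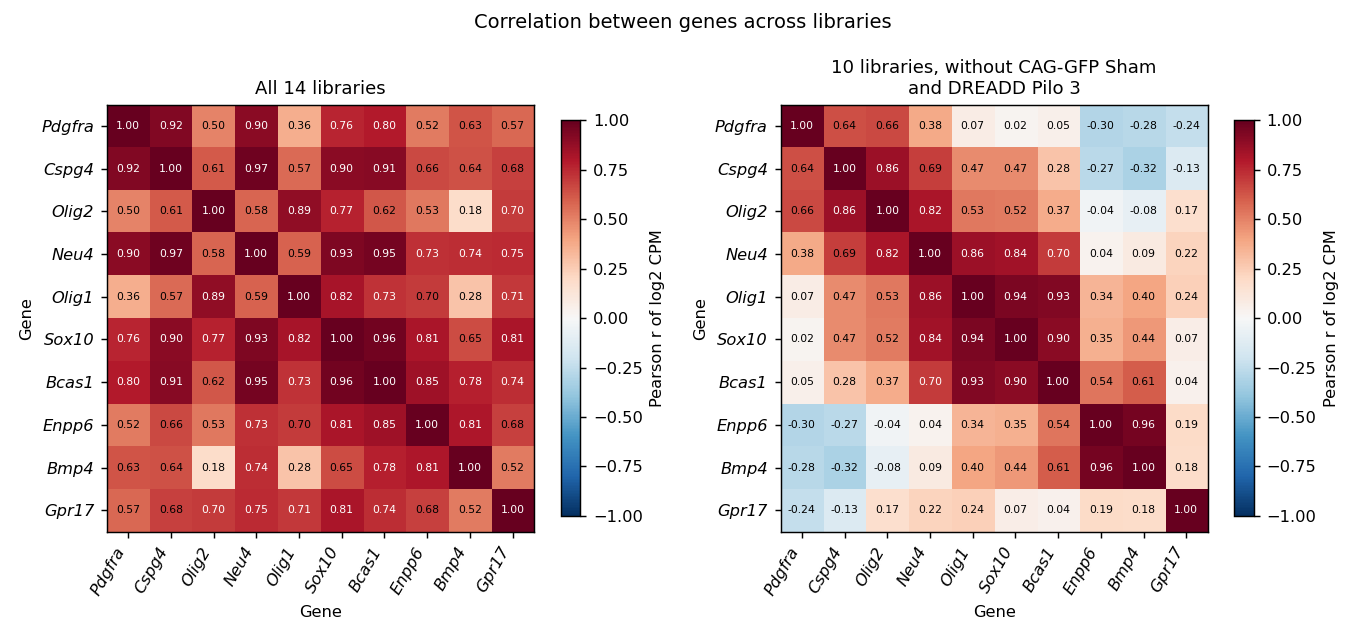
Pearson correlation of log2 CPM between each pair of the 10 genes, over all 14 libraries (left) and over 10 libraries without CAG-GFP Sham and DREADD Pilo 3 (right). Nearly all cells are red on the left, where the median is 0.73. On the right, Pdgfra, Cspg4 and Olig2 correlate at 0.64 to 0.86 and Enpp6 with Bmp4 at 0.96. Pdgfra with Enpp6 is at -0.30 there, CAG-GFP Pilo 4 with its 11 counts of Enpp6 included.

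The ratio of Enpp6 to Pdgfra, both per kilobase, shows the same spread library by library. It was 1.10, 42.0, 1.48 and 0.0010 in CAG-GFP Pilo, 0.238, 1.68, 0.136 and 0.0327 in DREADD Sham and 4.49 and 5.15 in DREADD Pilo 1 and 2, while DREADD Pilo 3 had no Enpp6 count. DREADD Pilo 1 and 2 lay above all 4 DREADD Sham libraries but inside the range of CAG-GFP Pilo, whose ends were CAG-GFP Pilo 4, on the Pdgfra side, and CAG-GFP Pilo 2, with 48 counts of Pdgfra. The ratio of Bcas1 to Pdgfra ran from 1.06 (CAG-GFP Pilo 4) to 338 (CAG-GFP Pilo 2) in CAG-GFP Pilo. It was 28.2, 350.5 and 21.0 in CAG-GFP Sham, on 8, 1 and 11 counts of Pdgfra. It ran from 2.99 to 11.1 in DREADD Sham, and was 8.05, 7.27 and 0.921 in DREADD Pilo. Olig2 was below Olig1 per kilobase in each library that held both, with a ratio between 0.0201 (CAG-GFP Pilo 2) and 0.301 (CAG-GFP Pilo 4).

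No gene of a second list of precursor genes passed. Of its 16 genes, 15 were tested and none passed in any of the 6 comparisons. Their median log2 fold change was 1.68 in CAG-GFP Pilo and 1.78 in DREADD Sham against CAG-GFP Sham, and -0.30 in DREADD Pilo against DREADD Sham. Ptprz1, a receptor phosphatase that astrocytes also express, stood at 921 to 1005 CPM in CAG-GFP Sham and 21.3 to 386 CPM elsewhere. Vcan, Pcdh15 and Tnr, which code for matrix and adhesion proteins, were low in CAG-GFP Sham (4.7 to 14.5, 0 to 4.3 and 5.0 to 26.7 CPM) and at 0 in DREADD Pilo 3, and Tnr was highest in DREADD Pilo 1 and 2 at 466 and 222 CPM. These example genes were picked after their values were seen.

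Of 16 further lineage transcription factors, 15 were tested and none passed in any comparison, with a median of 0.27 in DREADD Pilo against DREADD Sham. Of 14 premyelinating genes tested, 1 passed in DREADD Sham against CAG-GFP Sham: Lims2, a focal adhesion protein, whose log2 fold change was 9.21 ± 1.74 (SE, adjusted p = 0.0451, edgeR). Lims2 also passed in DREADD Pilo against CAG-GFP Sham (adjusted p = 0.0338, edgeR), where 1 of the 14 passed. Its exons overlap those of Gpr17 on the other strand by 188 bases. In DREADD Pilo against DREADD Sham, 13 of the 14 premyelinating genes were positive, with a median of 0.81, and none passed. The 13 myelinating genes were positive in all 3 comparisons with CAG-GFP Sham, with medians of 3.65 for CAG-GFP Pilo, 4.15 for DREADD Sham and 4.29 for DREADD Pilo, and none passed.

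No ligand of the PDGF receptors passed the test. Pdgfa, its main ligand, stood at 2.6 to 21.9 CPM in CAG-GFP Sham, 0 to 20.9 CPM in CAG-GFP Pilo, 10.7 to 35.2 CPM in DREADD Sham and 24.3 to 35.3 CPM in DREADD Pilo. All 6 PDGF ligand and receptor genes other than Pdgfra were tested, and none passed in any comparison. Of 24 other genes of BMP signalling, 1 passed in DREADD Sham against CAG-GFP Sham: Id2, a transcriptional inhibitor induced by BMP, fell by 3.16 on the log2 scale (SE 0.51, adjusted p = 0.0212, edgeR), with a mean of 3269 ± 270.4 CPM in the controls (SD, n = 3) and of 366 ± 157 CPM in DREADD Sham (SD, n = 4). The low Id2 level was not particular to DREADD Sham. Its mean was 619 ± 294 CPM for CAG-GFP Pilo and 486 ± 37.0 CPM for DREADD Pilo, with SDs over 4 and 3 libraries. Id2 did not pass for either of these groups against CAG-GFP Sham. Its mean was thus highest in CAG-GFP Sham, where the astrocyte genes were highest too. The part of astrocytes in the Id2 level was not tested. Bambi, a decoy receptor, is an example picked after its values were seen. It stood at 11.7 to 20.8 CPM in CAG-GFP Sham and 80.8 and 118 CPM in CAG-GFP Pilo 1 and 2. Its levels in the other libraries are not given here. Against CAG-GFP Sham, 9 of the 24 genes were positive in CAG-GFP Pilo (median -0.41), 9 in DREADD Sham (-0.64) and 12 in DREADD Pilo (-0.13). None of the 24 passed in DREADD Pilo against DREADD Sham, where their median was 0.66.

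Marker lists of other cells also differed between libraries, and not all in the direction of the 10 genes. The 13 myelinating genes summed to 730 to 800.5 CPM in CAG-GFP Sham, 1596 to 38404 CPM in CAG-GFP Pilo, 21234 to 41614 CPM in DREADD Sham and 586 to 46923 CPM in DREADD Pilo. The 14 astrocyte genes went the other way, at 29542 to 31027 CPM in CAG-GFP Sham and 891 to 6699 CPM in the other 11 libraries. The 12 granule cell genes were lowest in CAG-GFP Sham too, at 115 to 157 CPM, against 223 to 1140 CPM elsewhere. Among the other libraries they did not follow the 10 genes. Their sum was highest in CAG-GFP Pilo 3, where the 10 genes summed to 233 CPM, and 244 CPM in DREADD Pilo 1, where these summed to 3178 CPM. The part of this mixture in the level of the 10 genes was not tested.

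**Figure D5:**
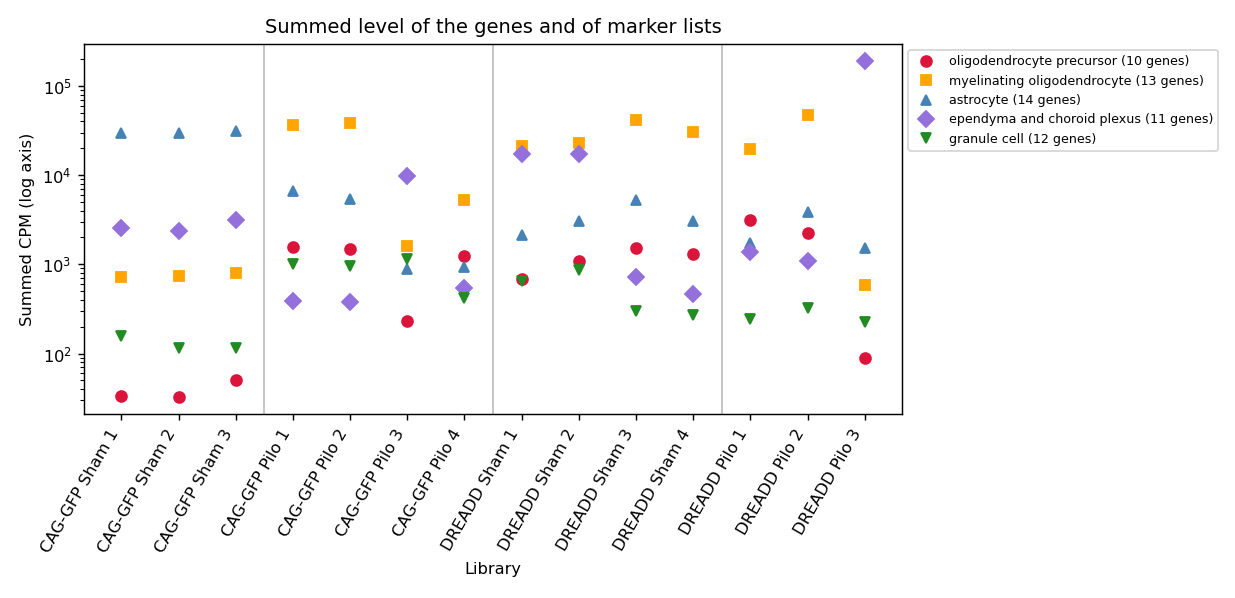
Summed CPM (log axis) of the 10 oligodendrocyte precursor genes and of 4 marker lists in each of the 14 libraries, with grey lines between groups. The precursor genes and the myelinating genes are both low in the 3 CAG-GFP Sham libraries and in DREADD Pilo 3, where the ependyma and choroid plexus genes reach 191274 CPM; the astrocyte genes are highest in CAG-GFP Sham.

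In DREADD Pilo 3, Pdgfra (41.5 CPM) and Bmp4 (26.8 CPM) were found while Olig2, Sox10, Gpr17 and Enpp6 had no count and Olig1 stood at 0.223 CPM. Fibroblasts of the brain's coverings are known to express Pdgfra. Of the 10 fibroblast markers, the sum was 1641 CPM in that library and at most 168 CPM in any other. Most of that sum was Igf2 at 1372 CPM, with Ogn at 222 CPM. In that library 5 of the 10, Col1a1, Col3a1 and Lum among them, were at 0, and the ependyma and choroid plexus genes reached 191274 CPM. The part of such cells in the Pdgfra level of DREADD Pilo 3 was not tested.

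For Cspg4 the other source is the pericyte. The 10 pericyte and smooth muscle genes summed to 1106 and 1506 CPM in DREADD Sham 3 and 4, 812 CPM in DREADD Pilo 2 and 353 CPM in DREADD Sham 1, and to at most 83.8 CPM in the others. The first 3 of these libraries had Cspg4 at 82.3 to 115 CPM, while DREADD Sham 1 had it at 11.6 CPM, the lowest of its group. In CAG-GFP Pilo 4, which had the highest Cspg4 level (147 CPM), the pericyte markers Rgs5, Kcnj8, Abcc9 and Vtn were all at 0. Acta2 of smooth muscle stood at 37.3 CPM there. That library had the fewest genes detected, 9372, and 10 of 12 endothelial genes were also at 0 in it. A marker at 0 there does not show that a cell type was absent. The part of pericytes in the Cspg4 level was not tested in any library.

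Among 11446 other genes with a mean of at least 5 CPM, the 10 whose log2 CPM correlated best with the mean of the 10 precursor genes over the 14 libraries included Pllp (0.97), Limd2, Nxph1, Bcas1os1, Lims2, Gltp, Atat1, Arpc5 and Ugt8a (0.94). Pllp codes for plasmolipin, a membrane protein of myelin, and Ugt8a for the enzyme that makes galactosylceramide. Pllp stood at 1.56 CPM in CAG-GFP Sham on average, and at 312 CPM in CAG-GFP Pilo, 302 CPM in DREADD Sham and 328 CPM in DREADD Pilo. Nxph1, a secreted ligand of neurexins, had no count in CAG-GFP Sham and means of 93.9, 91.5 and 89.2 CPM in the same groups. Bcas1os1 lies antisense to Bcas1 and shares 440 exon bases with it, and since the sources used here do not say whether counting used strand, reads of the 2 genes cannot be told apart there. The same holds for Gpr17 and Lims2, for 157 bases of Olig1 with Gm15966 and for 89 bases of Bmp4 with Gm15217.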

How the data were processed

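RNA of 14 libraries of sorted cells was amplified with SMART-Seq v4, per the labels' protocols. The authors deposited raw read counts per gene, since all values are whole numbers. Bowtie2, featureCounts, Subread, edgeR and R 4.1.1 are named in the submitters' processing notes, with the build hg38. The identifiers are those of mouse Ensembl genes, which that human build does not match. The annotation release is not given in the sources used here, nor is the strand setting. Identifiers without version were matched to GENCODE M21 on GRCm38 (42462 of 43346 had a symbol), which also gave positions and exon lengths. Promoters came from RefSeq on GRCm38.p6.

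Groups were taken from the sample titles. Counts were tested with edgeR 4.0.16 (R 4.3.3): TMM factors, filterByExpr, the quasi-likelihood F-test on 1 model of the 14 libraries, Benjamini-Hochberg adjustment over 18676 genes and a threshold of 0.05. CPM for correlations was logged with a prior count of 2. Group means carry the SD over libraries. DESeq2 1.42.0, limma 3.58.1 (voom), RLE factors, no filter, the library set, a replicate block, 2-group fits and each library left out were alternatives. The fitting code was tested on simulated data. The genes named are the 10 members, at most 3 genes past the test of each other list, and the 10 most alike genes, of which 1 is not reported here. Other genes named were picked after their values were seen. The members and lists were chosen with earlier results of these data known.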

Additional observations from a re-analysis of the deposited data

Results flagged for a closer look

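Bmp4 stood at 57.0 CPM in DREADD Sham 2, against 10.8, 13.8 and 10.3 CPM in the other DREADD Sham libraries, a gap large enough to set that library apart on the log2 scale. It was the only such value among 20 pairs of a gene and a group of 4 libraries, and chance sets apart about 1 in 20. Enpp6 was also highest in DREADD Sham 2 within its group, at 79.9 CPM.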

How the results depend on the processing

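Of the 10 genes, 3 passed for CAG-GFP Pilo, 3 for DREADD Sham and 3 for DREADD Pilo against CAG-GFP Sham, and 0 in the other 3 comparisons. In that order of comparisons (then the interaction) the counts were 5, 5, 6 and 1 with no filter on low counts and 7, 7, 8 and 6 with DESeq2. Over all genes, the fit with no filter called 60, 62, 54 and 3 of 26075. DESeq2 called 2418 of 17642, 2929 of 17908, 2951 of 17908 and 1568 of 18507 genes, far more than edgeR. With RLE factors the counts of members were 2, 2, 2 and 0, with limma voom 3, 4, 3 and 0 and with library set as a covariate 2, 3, 1 and 0. Of the 18676 genes tested, RLE factors called 36, 38, 31 and 0 and limma voom 777, 858, 1005 and 37. The covariate called 89, 146, 40 and 11 of them. Fits of only the groups compared gave 4, 7 and 5 members, beside 168 of 15001, 647 of 15187 and 2407 of 15657 genes. Fits within library set 1 gave 5 and 5 members, beside 471 and 530 of 17260 genes. With the counts of CAG-GFP Sham added up as 1 sample, an alternative chosen after seeing the data, the counts were 0, 0, 0 and 0. Leaving out 1 library at a time gave 0 to 5, 0 to 5 and 0 to 6 in the 3 comparisons with CAG-GFP Sham and 0 in the interaction. In those 3 comparisons 3 to 151, 6 to 260 and 4 to 152 genes passed, of 17988 to 19973 tested. For DREADD Pilo against DREADD Sham and against CAG-GFP Pilo the count was 0 in every one of these fits. Within a library set, DREADD Pilo against CAG-GFP Sham and the interaction could not be fitted, since no set holds both groups, and the interaction has no fit of only the groups compared. All members fitted were positive against CAG-GFP Sham in every fit, 9 of them in the fit of only DREADD Pilo and CAG-GFP Sham.

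Directions changed in DREADD Pilo against DREADD Sham and against CAG-GFP Pilo, in values that had not passed. In the interaction, where the 10 genes were negative, 1 was positive with the replicate block and 1 without CAG-GFP Pilo replicate 4. In DREADD Pilo against DREADD Sham, limma voom gave a log2 fold change of -0.061 for Neu4, -1.04 for Olig1, -0.66 for Olig2, -1.68 for Sox10 and -0.37 for Bcas1. Library set as a covariate gave -0.34 for Olig1, -0.56 for Sox10 and -0.76 for Bcas1, and library set 2 alone -0.69 for Cspg4, -0.30 for Sox10 and -0.14 for Bcas1. Leaving out 1 library gave -0.44 to 0.68 for Bcas1, -1.06 to 0.64 for Cspg4, -0.76 to 1.12 for Neu4, -0.27 to 0.77 for Olig1 and -0.84 to 0.73 for Sox10. Against CAG-GFP Pilo, limma voom gave -0.021 for Cspg4, -0.33 for Olig1, -0.88 for Olig2, -0.90 for Sox10 and -0.56 for Gpr17. There the covariate gave -0.19 for Olig1, -0.30 for Sox10 and -0.23 for Bcas1, and set 2 alone -0.49 for Olig1, -0.52 for Sox10 and -0.66 for Bcas1. With 1 library left out the range was -0.42 to 0.70 for Bcas1, -0.97 to 1.86 for Cspg4, -0.88 to 1.001 for Neu4, -0.34 to 0.70 for Olig1, -0.26 to 1.22 for Pdgfra and -0.81 to 0.83 for Sox10. The cause of these changes was not tested. Enpp6 and Bmp4 were positive in both comparisons in every fit.

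The replicate numbers of the titles were also used as a block. Libraries that share a number correlated at -0.38 to 0.12 (19 pairs) and others at -0.35 to 0.43 (54 pairs). The labels do not state a pairing, and these values cannot exclude one, because library set varies with the numbers. Numbers 1 and 2 were in set 2 for CAG-GFP Pilo but in set 1 for DREADD Sham. With the replicate block, 0 of the 10 genes passed in any of the 6 comparisons. For DREADD Pilo against DREADD Sham the block gave 0.28 for Pdgfra, -0.27 for Neu4, -0.37 for Olig1, -0.19 for Sox10 and -0.82 for Bcas1, and against CAG-GFP Pilo it gave -0.041 for Olig1 and -0.10 for Bcas1.

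Over all genes the counts also moved. The 45, 56 and 42 genes called for CAG-GFP Pilo, for DREADD Sham and for DREADD Pilo against CAG-GFP Sham became 2418, 2929 and 2951 with DESeq2, 777, 858 and 1005 with limma voom and 1, 0 and 9 with the block. Fits of only the groups compared called 168, 647 and 2407 genes, the covariate 89, 146 and 40, library set 1 alone 471 and 530, and the summed controls 0 in each. DESeq2 called 180 genes in DREADD Pilo against DREADD Sham, 231 against CAG-GFP Pilo and 1568 in the interaction, where edgeR called 0, limma voom 37 in the last of these, the covariate 2, 0 and 11, and no filter 0, 0 and 3. Depth, at 27965232 to 28432365 counts per CAG-GFP Sham library, limits the genes without a count in that group. There the floor of 3 counts over the group was 0.0505 CPM.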
